A study of Canis lupus familiaris with 24 samples.

Results

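PRRX1 was knocked down with an siRNA in TGFb-treated MDCK-NBL2 cells, and the transcriptome at day 4 was set against that of cells given a control siRNA. MDCK cells are epithelial cells from dog kidney, and MDCK-NBL2 is the MDCK line used here. The libraries were taken by their labelled treatment and made up 6 of the 24 in the series, 3 from TGFb-treated cells with siPRRX1 and 3 from TGFb-treated cells with the control siRNA, siCTR. The labels call the siPRRX1 cells a partial and the siCTR cells a full epithelial-mesenchymal transition (EMT). Both groups carried TGFb, so what TGFb did alone was read from other day 4 MDCK-NBL2 libraries of the series, 3 with TGFb and no siRNA and 3 untreated. All of these come from 1 cell line. The sequence of the siRNA and the number of siRNAs used were not given in the sources used here, so an effect of the siRNA itself cannot be told apart from the loss of PRRX1.

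EMT is the change by which epithelial cells give up their junctions and polarity, build contractile filaments and matrix, and become able to move. TGFb is one of its strongest inducers, acting through SMAD proteins on a set of transcription factors that includes the SNAI, ZEB, TWIST and PRRX families. PRRX1 is a paired-related homeobox factor of the embryonic limb and craniofacial mesenchyme, and is itself known as an EMT inducer in carcinoma cells.

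Total counts were 7349447 to 22172939 in siPRRX1 libraries and 7202327 to 26655390 in siCTR libraries, and levels are given as counts per 1000000 (CPM). A gene with no count in a library may still have been present at the worth of 3 counts. On unscaled totals this was 0.135 to 0.408 CPM in siPRRX1 libraries and 0.113 to 0.417 CPM in siCTR libraries, counting error only. The levels printed below use scaled library sizes, on which the same counts are worth somewhat more. Replicate 1 of both groups was the deepest and carries a library number of another number series than replicates 2 and 3. Same-numbered libraries deviated together in all 3 pairs (r over genes of 0.4, 0.224 and 0.164), and replicate number was kept as a block. Between unlike numbers r was 0.118 for siPRRX1 replicate 2 with siCTR replicate 3 and 0.0602 for siPRRX1 replicate 3 with siCTR replicate 2. It was below 0 for the rest, so the check hardly tells pair 2 from pair 3. Of 8 kidney epithelium markers 6 were in the table, with CDH16 at 0 in all 6 libraries. Their summed level was 1820 to 2400 CPM in siPRRX1 cells and 1300 to 1670 CPM in siCTR cells. The higher sum came mainly from CDH1 (mean of 1360 against 852 CPM) and EPCAM (417 against 265 CPM). TJP1 went the other way, at 256, 279 and 272 CPM in siPRRX1 cells and 285, 302 and 312 CPM in siCTR cells. PAX8, a kidney lineage factor, was at 89.2, 120 and 119 CPM in siPRRX1 cells, against 107, 95.5 and 98.7 CPM in siCTR cells. Of the markers of other cells, 9 fibroblast genes summed to 5.76 to 7.97 CPM in siPRRX1 cells and 9.71 to 10.8 CPM in siCTR cells, with TCF21, PDGFRB, DPT and FAP at 0. The 8 endothelial markers in the table summed to 4.84 to 6.92 CPM in siPRRX1 cells and 2.08 to 5.02 CPM in siCTR cells, with PECAM1 at 0. The 8 leukocyte markers summed to 1.55 to 11.3 CPM in siPRRX1 cells and 1.94 to 5.88 CPM in siCTR cells, with CD3E, PTPRC, LYZ and SPI1 at 0. In bulk samples, fewer cells of a type and less RNA per cell cannot be told apart.

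The siRNA lowered its target. PRRX1 stood at 1.11, 0.339 and 0 CPM in siPRRX1 cells, against 33.9, 7.35 and 3.88 CPM in siCTR cells, in the order of replicates 1, 2 and 3 that is kept throughout. These values rest on 25 counts over the 3 siPRRX1 libraries and 837 over the 3 siCTR libraries. Every siPRRX1 library lay below every siCTR library, and the siCTR libraries themselves differed widely, replicate 1 being the highest. The log2 fold change was -4.91 ± 0.26 (SE; adjusted p = 5.2e-05), which is 30.1-fold lower. An adjusted p comes from the edgeR quasi-likelihood test with Benjamini-Hochberg adjustment over all genes tested, and a gene is said to rise or fall only where it is under 0.05. TGFb-treated cells without siRNA had 37.2, 8.89 and 5.71 CPM of PRRX1 and untreated cells 0.975, 3.25 and 0 CPM, so the siPRRX1 libraries lay within the range of the untreated ones.

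Across the transcriptome 2528 of 11239 genes tested changed, or 22.5%, with 1161 higher (10.3%) and 1367 lower (12.2%). A change of at least 2-fold was called for 141 genes that rose (1.25%) and 209 that fell (1.86%). Without the block 1159 genes were called, 459 higher and 700 lower, and all 1159 were among the 2528. Leaving out the third pair gave 1038 calls and leaving out the first gave 3255. The fit without replicate 1 has fewer libraries, yet its adjusted p are often far smaller, as for ACTA2 (4.5e-24, against 5.2e-05 with all pairs). Such values, and the larger list counts of that fit, are not read as stronger evidence. A model over all 24 libraries without the block gave 249 calls. In that model the lists lost most of their calls, with 3 mesenchymal cytoskeleton genes, no collagen, no integrin and no mitotic gene lower, and 3 interferon-response and 4 junction genes higher. The median log2 fold change over all genes tested was 0.006, and the gene lists below are read against that value and these shares. Most named genes were picked by adjusted p or size of change in the same knockdown libraries. Groups that do not overlap follow in part from that choice and add no separate support. The share of all genes tested whose groups do not overlap was not counted.

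Of the EMT transcription factors, 11 of the 17 in the table were expressed enough to be tested, and 5 fell and 1 rose, with a median log2 fold change of -0.14 (3 fell and 1 rose without the block, and none rose without replicate 3). PRRX2, the close relative of PRRX1, was at 16.1, 13.2 and 14 CPM in siPRRX1 cells, against 36.5, 24 and 31.7 CPM in siCTR cells. SNAI2, a zinc finger repressor of epithelial genes, was at 53.9, 29.3 and 21.8 CPM in siPRRX1 cells, against 106, 85.6 and 76.4 CPM in siCTR cells. In neither gene did the groups overlap, and the log2 fold changes were -1.09 ± 0.11 (adjusted p = 0.00031) for PRRX2 and -1.37 ± 0.14 (adjusted p = 0.00034) for SNAI2. SNAI2 was at 148, 143 and 107 CPM in TGFb-treated cells and at 5.52, 53.7 and 9.52 CPM in untreated cells, so the siPRRX1 libraries lay below all TGFb-treated ones and above untreated replicates 1 and 3.

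ZEB1, another repressor of epithelial genes, was at 3.68, 1.13 and 1.7 CPM in siPRRX1 cells, against 13.5, 3.99 and 2.91 CPM in siCTR cells. It was lower within every pair although siPRRX1 replicate 1 exceeded siCTR replicate 3, and its log2 fold change was -1.66 ± 0.25 (adjusted p = 0.0023, and 0.11 without the block). ZEB2 was too low to be tested, at 1.21, 0.565 and 0.565 CPM in siPRRX1 cells and 3.27, 1.76 and 0.485 CPM in siCTR cells, with overlapping groups. SNAI1, the relative of SNAI2 that acts early in EMT, was at 16.1, 17.5 and 15.3 CPM in siPRRX1 cells, against 19.3, 16.8 and 17.1 CPM in siCTR cells. Its groups overlapped and its log2 fold change of -0.14 ± 0.11 was not called (adjusted p = 0.42). ETS1 rose, at 165, 163 and 168 CPM in siPRRX1 cells and 127, 145 and 130 CPM in siCTR cells (0.31 ± 0.07, adjusted p = 0.012, and 0.11 without replicate 3). FOXC2, SOX9, SOX4 and TCF3 were not called. TWIST1 could not be analysed, since no gene in the table carried that symbol.

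**Figure D1:**
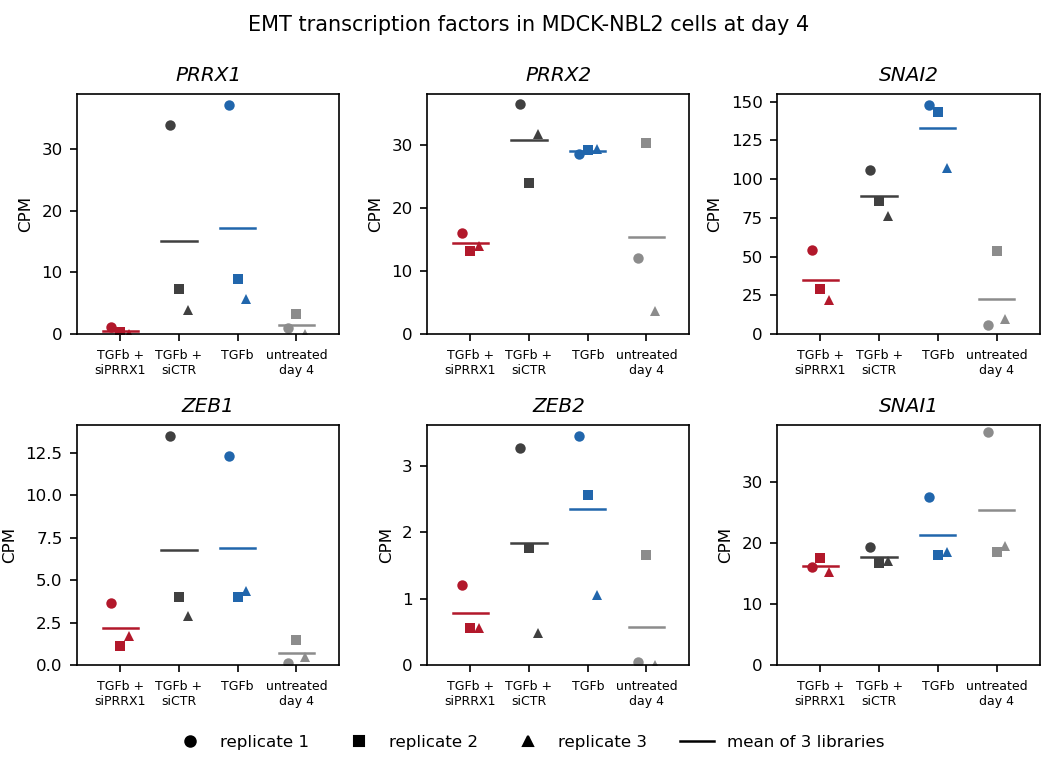
CPM of 6 EMT transcription factors in each day 4 MDCK-NBL2 library, for TGFb with siPRRX1, TGFb with siCTR, TGFb alone and untreated cells. Marker shapes give the replicate and lines the mean of 3 libraries. PRRX1, PRRX2 and SNAI2 show every siPRRX1 library below every siCTR library, while SNAI1 lies at 15.3 to 17.5 CPM with siPRRX1 and 16.8 to 19.3 CPM with siCTR.

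Among other transcription factors of limb, craniofacial and other mesenchyme, 16 of 45 in the table were tested, and 2 rose and 3 fell, with a median of -0.24. DLX5, a homeobox factor of bone and limb, was at 1.97, 2.49 and 2.54 CPM in siPRRX1 cells, against 4.82, 4.15 and 5.5 CPM in siCTR cells (-1.08 ± 0.23, adjusted p = 0.013, and 0.087 in the DESeq2 Wald test). PBX3, a homeobox cofactor, was at 60.8, 62.1 and 57.2 CPM in siPRRX1 cells and at 75.1, 79.7 and 87 CPM in siCTR cells (-0.41 ± 0.08, adjusted p = 0.0066). Both genes were lower in all siPRRX1 libraries. RUNX1 also fell (-0.38 ± 0.12, adjusted p = 0.049, and 0.098 without the block, 0.28 in the DESeq2 Wald test, 0.26 without replicate 1 and 0.17 without replicate 3). The bone factor RUNX2 rose by 0.29 ± 0.07 (adjusted p = 0.018, and 0.12 without the block, 0.1 in the DESeq2 Wald test, 0.09 without replicate 2 and 0.11 without replicate 3). TBX2 rose by 0.41 ± 0.1 (adjusted p = 0.018, and 0.097 without the block, 0.061 in the DESeq2 Wald test and 0.14 without replicate 3). Without the block none rose and 2 fell, and without replicate 3 none was called, since DLX5 and PBX3 were then at adjusted p = 0.065 and 0.064. Without replicate 2, 1 rose. Of 3 tested genes that earlier studies had linked to PRRX1, PDPN fell and SNAI1 and SOX9 were not called. PDPN, the mucin-like membrane protein podoplanin, was at 140, 150 and 169 CPM in siPRRX1 cells, against 457, 202 and 255 CPM in siCTR cells, with no overlap (-0.92 ± 0.21, adjusted p = 0.015, and 0.13 in the DESeq2 Wald test, where no gene of this list was called).

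Genes of the mesenchymal cytoskeleton fell together. Of 30 tested members, 23 fell and 1 rose, with a median log2 fold change of -0.68, and 17 fell without the block. ACTA2, smooth muscle actin, was at 229, 178 and 115 CPM in siPRRX1 cells, against 1430, 1090 and 1390 CPM in siCTR cells. TAGLN, an actin-binding protein of smooth muscle, was at 243, 243 and 143 CPM in siPRRX1 cells, against 1140, 986 and 1150 CPM in siCTR cells. The groups lay far apart in both genes, which were 7.63-fold and 5.29-fold lower (log2 fold changes of -2.93 ± 0.18 with adjusted p = 5.2e-05 and -2.4 ± 0.17 with adjusted p = 8.6e-05). ACTG2, the enteric smooth muscle actin, was at 5.75, 9.15 and 3.81 CPM in siPRRX1 cells and 32.6, 37.4 and 64.7 CPM in siCTR cells (-2.72 ± 0.27, adjusted p = 0.00033). ACTA2 and ACTG2 encode near-identical proteins. How many reads their transcripts share, and how the counting split them, was not tested, so their separate values are uncertain.

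Further members fell as well. MYL9, a myosin regulatory light chain, was at 373, 259 and 250 CPM in siPRRX1 cells, against 710, 534 and 647 CPM in siCTR cells (-1.11 ± 0.09, adjusted p = 0.00014). CSRP1, a LIM protein of actin bundles, was at 537, 446 and 414 CPM in siPRRX1 cells, against 936, 822 and 873 CPM in siCTR cells (-0.91 ± 0.08, adjusted p = 0.00015). FHL1, another LIM protein of muscle, was at 15.6, 13.7 and 7.63 CPM in siPRRX1 cells, against 66.1, 42 and 41.7 CPM in siCTR cells (-2.02 ± 0.14, adjusted p = 8.1e-05). None of these 3 genes had overlapping groups. PDLIM3, an actinin-associated protein that was not on the list, was at 5.45, 3.39 and 2.83 CPM in siPRRX1 cells and 28.7, 10.5 and 19.3 CPM in siCTR cells (-2.3 ± 0.19, adjusted p = 0.00015). VIM, the mesenchymal intermediate filament vimentin, was chosen after its values were seen and stood at 2920, 2090 and 2110 CPM in siPRRX1 cells, against 4810, 3250 and 3400 CPM in siCTR cells. It was 1.6-fold lower without overlap (-0.68 ± 0.08, adjusted p = 0.00086, and 0.054 without the block). MSN, MYLK, LIMA1, FSCN1, CNN3 and S100A4 were not called, and the focal adhesion protein TNS3 was the member that rose, at 40.2 CPM on average in siPRRX1 cells and 22.8 CPM in siCTR cells (0.78 ± 0.12, adjusted p = 0.0027).

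Fibrillar, network and other collagens fell in 12 of 21 tested cases, and 1 rose, with a median of -0.56 (6 fell and none rose without the block). COL3A1, a fibrillar collagen that assembles with type I, was at 4.84, 0.791 and 0.565 CPM in siPRRX1 cells, against 97.5, 6.39 and 10.7 CPM in siCTR cells. Its siPRRX1 libraries lay below all siCTR libraries, replicate 1 being far above the others in siCTR cells. It was 18.4-fold lower (-4.2 ± 0.19, adjusted p = 3.3e-05, and 0.052 without the block), with a log2 fold change of -3.55 without replicate 1. COL1A2, a chain of type I collagen, was at 1400, 828 and 682 CPM in siPRRX1 cells, against 2460, 2130 and 2020 CPM in siCTR cells (-1.24 ± 0.13, adjusted p = 0.00045). Its partner COL1A1, chosen after its values were seen, stood at 1500, 1250 and 887 CPM in siPRRX1 cells and 1770, 1940 and 1760 CPM in siCTR cells (-0.61 ± 0.13, adjusted p = 0.01, and 0.064 without the block and 0.073 without replicate 3). COL6A1, which forms beaded microfibrils, was at 66.9, 39 and 27 CPM in siPRRX1 cells and 170, 103 and 97.1 CPM in siCTR cells (-1.49 ± 0.1, adjusted p = 7e-05). In these 3 collagens the groups again did not overlap. COL17A1, a transmembrane collagen of epithelial hemidesmosomes, was at 617, 604 and 440 CPM in siPRRX1 cells, against 1050, 971 and 967 CPM in siCTR cells (-0.86 ± 0.09, adjusted p = 0.00052). COL14A1, which sits on the surface of collagen fibrils, was the member that rose, at 18.7, 6.78 and 9.75 CPM in siPRRX1 cells and 7.29, 3.04 and 4.21 CPM in siCTR cells (1.28 ± 0.15, adjusted p = 0.00079, and 0.094 without the block). Without replicate 1, 2 collagens rose.

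The enzymes and chaperones that modify and crosslink collagen showed 12 of 19 tested members lower and 2 higher, with a median of -0.37 (7 fell without the block and 6 without replicate 3). LOX, lysyl oxidase, was at 911, 777 and 558 CPM in siPRRX1 cells, against 1800, 1560 and 1670 CPM in siCTR cells. All siPRRX1 libraries were lower, and the log2 fold change was -1.18 ± 0.12 (adjusted p = 0.00034). P4HA3, a catalytic chain of prolyl 4-hydroxylase, was at 4.34, 4.29 and 3.39 CPM in siPRRX1 cells and 10.3, 11.2 and 9.38 CPM in siCTR cells (-1.34 ± 0.17, adjusted p = 0.00092). FKBP10, a collagen chaperone, was at 451, 418 and 387 CPM in siPRRX1 cells and 558, 634 and 574 CPM in siCTR cells (-0.49 ± 0.08, adjusted p = 0.003). The 2 members that rose were lysyl oxidase homologues of LOX. LOXL1 was at 423, 389 and 411 CPM in siPRRX1 cells, against 313, 272 and 265 CPM in siCTR cells (0.53 ± 0.07, adjusted p = 0.001). LOXL2 was at 308, 264 and 326 CPM in siPRRX1 cells, against 226, 196 and 220 CPM in siCTR cells (0.48 ± 0.06, adjusted p = 0.0012). Neither overlapped between groups, opposite in direction to LOX.

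Matrix glycoproteins went both ways, with 13 of 39 tested lower and 8 higher and a median of -0.17 (6 in each direction without the block, and 8 lower without replicate 3). LAMA4, a chain of mesenchymal and vascular laminins, was at 58.1, 18.8 and 10.2 CPM in siPRRX1 cells and 178, 67.6 and 67.3 CPM in siCTR cells (-1.92 ± 0.16, adjusted p = 0.00015, and 0.086 without the block). It was lower in every siPRRX1 library. SPARC, a collagen-binding matricellular protein, was at 16.3, 6.89 and 8.34 CPM in siPRRX1 cells, against 5.04, 3.19 and 2.75 CPM in siCTR cells, and rose (1.54 ± 0.18, adjusted p = 0.00075). SPP1, osteopontin, was at 1970, 2020 and 1860 CPM in siPRRX1 cells, against 1110, 1350 and 1210 CPM in siCTR cells (0.68 ± 0.08, adjusted p = 0.00077). TNXB, a tenascin, was at 152, 173 and 188 CPM in siPRRX1 cells and 102, 118 and 104 CPM in siCTR cells (0.66 ± 0.07, adjusted p = 0.00061). All 3 of these were higher in every siPRRX1 library. FN1, fibronectin, was chosen after its values were seen and stood at 45000, 33600 and 31200 CPM in siPRRX1 cells, against 49800, 50500 and 45800 CPM in siCTR cells. Its groups did not overlap, yet its log2 fold change of -0.42 ± 0.15 was not called (adjusted p = 0.071, and 4.3e-07 without replicate 1, 0.49 without replicate 2 and 0.34 without replicate 3).

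Proteoglycans and hyaluronan genes had 5 of 15 tested members lower and 1 higher, with a median of -0.32, and the same counts without the block. VCAN, the large matrix proteoglycan versican, was at 188, 180 and 84.3 CPM in siPRRX1 cells, against 625, 601 and 487 CPM in siCTR cells (-1.98 ± 0.14, adjusted p = 9.7e-05). HAS2, a hyaluronan synthase, was at 303, 312 and 226 CPM in siPRRX1 cells, against 644, 576 and 594 CPM in siCTR cells (-1.11 ± 0.1, adjusted p = 0.00017). In CEMIP2, a membrane protein linked to hyaluronan breakdown, the libraries were at 299, 298 and 364 CPM with siPRRX1 and 218, 177 and 214 CPM with siCTR (0.66 ± 0.08, adjusted p = 0.00077). None of the 3 overlapped, the synthase and the proteoglycan being lower and CEMIP2 higher in siPRRX1 cells. BGN, the small proteoglycan biglycan, was 1.91-fold lower (-0.93 ± 0.15, adjusted p = 0.0032), and the syndecan SDC1 fell by 0.45 ± 0.09 (adjusted p = 0.0074, and 0.089 without replicate 3).

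Among matrix proteases and their inhibitors, 10 of 35 tested fell and 3 rose, with a median of -0.17 (4 and 1 without the block, and 7 rose without replicate 1). ADAM12, a membrane metalloprotease of mesenchyme, was at 15.9, 8.47 and 10.7 CPM in siPRRX1 cells, against 55, 30.7 and 31.1 CPM in siCTR cells (-1.73 ± 0.1, adjusted p = 5.2e-05). ADAM17, which sheds membrane-bound growth factors, was at 64.7, 78.9 and 67 CPM in siPRRX1 cells, against 113, 140 and 122 CPM in siCTR cells (-0.83 ± 0.06, adjusted p = 1e-04). TIMP3, a matrix-bound metalloprotease inhibitor, was at 1880, 1690 and 1420 CPM in siPRRX1 cells and 3720, 3030 and 3470 CPM in siCTR cells (-1.03 ± 0.1, adjusted p = 0.00033). These 3 were lower in every siPRRX1 library. PLAUR, the urokinase receptor, fell in each pair with overlapping groups (-0.8 ± 0.08, adjusted p = 0.00039, and 0.22 without the block).

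Integrins, the receptors for this matrix, fell in 8 of 14 tested cases and rose in 1, with a median of -0.29 (5 fell and none rose without the block). ITGA5, the fibronectin receptor chain, was at 1900, 1270 and 1160 CPM in siPRRX1 cells, against 3270, 2370 and 2370 CPM in siCTR cells. Its groups did not overlap (-0.9 ± 0.08, adjusted p = 0.00025). ITGB6, an epithelial chain that helps to activate latent TGFb, was at 349, 343 and 312 CPM in siPRRX1 cells, against 486, 530 and 570 CPM in siCTR cells (-0.65 ± 0.08, adjusted p = 0.0011). ITGB8, which shares that role, was at 14.2, 19.9 and 18.6 CPM in siPRRX1 cells and 35.8, 25.2 and 29.9 CPM in siCTR cells (-0.85 ± 0.17, adjusted p = 0.0095). Both were lower in all siPRRX1 libraries. ITGB1 and ITGAV, which pair with many chains, fell by 0.38 ± 0.07 (adjusted p = 0.0081, and 0.09 without replicate 3) and 0.35 ± 0.08 (adjusted p = 0.013, and 0.11 without replicate 2 and 0.12 without replicate 3). Without replicate 2, 5 integrins fell, and without replicate 3, 3 fell. The member that rose, ITGBL1, is an integrin-beta-like secreted protein at 2.18 CPM on average in siPRRX1 cells and 0.979 CPM in siCTR cells, and it was not called without replicate 2, without replicate 3 or without the block. Without replicate 1, 3 rose.

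**Figure D2:**
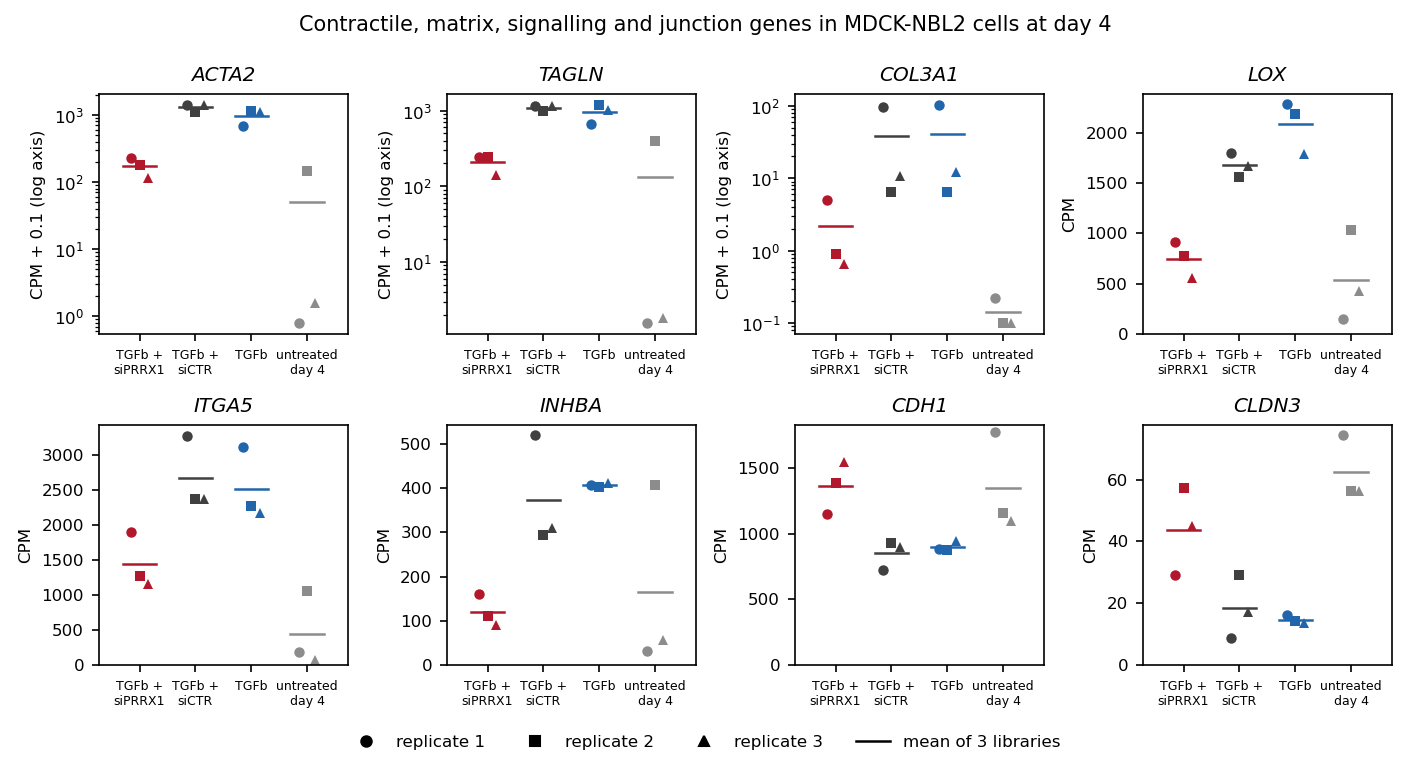
CPM of 8 contractile, matrix, signalling and junction genes in each day 4 MDCK-NBL2 library, for TGFb with siPRRX1, TGFb with siCTR, TGFb alone and untreated cells. ACTA2, TAGLN and COL3A1 are on a log axis after adding 0.1 CPM. Marker shapes give the replicate and lines the mean. With siPRRX1 the first 6 genes lie below siCTR in every library, and CDH1 lies above it at 1150 to 1550 CPM against 727 to 931 CPM.

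The TGFb and BMP pathway had 9 of 38 tested members lower and 6 higher, with a median of -0.06 (5 lower and 2 higher without the block, 4 lower and 2 higher without replicate 3). Among ligands, INHBA, the chain of activin A, was at 160, 111 and 91.6 CPM in siPRRX1 cells, against 519, 294 and 309 CPM in siCTR cells. INHBA did not overlap between groups and was 3.07-fold lower (-1.62 ± 0.08, adjusted p = 4.6e-05). TGFB3, a TGFb isoform, was at 5.05, 2.03 and 1.55 CPM in siPRRX1 cells, against 11.1, 8.79 and 9.06 CPM in siCTR cells (-1.66 ± 0.26, adjusted p = 0.003), with a log2 fold change of -2.28 without replicate 1. BMP4, a bone morphogenetic protein, was at 248, 157 and 170 CPM in siPRRX1 cells and 177, 93 and 113 CPM in siCTR cells, higher in each pair while the groups overlapped (0.61 ± 0.07, adjusted p = 0.00072, and 0.16 without the block). Of the receptors, TGFBR1, the type I TGFb receptor, was at 539, 615 and 733 CPM in siPRRX1 cells, against 369, 416 and 446 CPM in siCTR cells, higher in every library (0.61 ± 0.07, adjusted p = 0.00055). PMEPA1, a TGFb-induced inhibitor of SMAD signalling, was at 433, 441 and 429 CPM in siPRRX1 cells, against 621, 658 and 652 CPM in siCTR cells (-0.56 ± 0.06, adjusted p = 0.00064).

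Wnt signalling genes were lower in 10 of 29 tested cases and higher in 3, with a median of -0.26 (6 and 1 without the block, 6 lower without replicate 3). Among ligands, WNT5A was at 15.6, 11.6 and 10.2 CPM in siPRRX1 cells, against 41.8, 30 and 32.4 CPM in siCTR cells (-1.47 ± 0.1, adjusted p = 8.9e-05). WNT5B was at 164, 116 and 116 CPM in siPRRX1 cells, against 286, 199 and 228 CPM in siCTR cells (-0.84 ± 0.07, adjusted p = 0.00012). WNT5A and WNT5B are ligands mainly of the beta-catenin-independent branch, and both were lower in every siPRRX1 library. ROR2, a receptor kinase for WNT5A, was at 1.36, 1.69 and 0.424 CPM in siPRRX1 cells and 4.51, 3.99 and 2.75 CPM in siCTR cells (-1.69 ± 0.3, adjusted p = 0.0049). FZD4, a frizzled receptor, was 2.14-fold lower (-1.1 ± 0.13, adjusted p = 0.00086), and the R-spondin receptor LGR6 was 1.47-fold lower (-0.55 ± 0.09, adjusted p = 0.0029). The 3 members that rose were RNF43, WNT7B and FZD10.

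The list of YAP and TEAD targets also holds components of the pathway, such as YAP1, WWTR1, TEAD1 and TEAD2. It split evenly, with 9 of 28 tested higher and 9 lower and a median of 0.11 (6 and 3 without the block, and 5 lower without replicate 3). Components were among the called members in both directions, TEAD2 and VGLL3 higher and WWTR1, TEAD1, VGLL4 and AMOTL1 lower. The split ran through the EGF family, whose members bind the epidermal growth factor receptor. EREG, epiregulin, was at 178, 157 and 113 CPM in siPRRX1 cells, against 534, 437 and 392 CPM in siCTR cells (-1.61 ± 0.08, adjusted p = 3.9e-05). AREG, amphiregulin, was at 95.9, 37.6 and 52.6 CPM in siPRRX1 cells, against 39.2, 12.3 and 11.6 CPM in siCTR cells (1.59 ± 0.14, adjusted p = 0.00023, and 0.085 without the block). EREG was lower in every siPRRX1 library, and AREG was higher in each pair with a slight overlap between groups. VGLL4, a TEAD corepressor, was 1.66-fold lower (-0.73 ± 0.07, adjusted p = 0.00026). AMOTL2, a YAP-binding angiomotin, was 1.58-fold higher (0.66 ± 0.07, adjusted p = 0.00044), and the secreted kinase-like protein FJX1 was 2.51-fold higher (1.33 ± 0.14, adjusted p = 0.00044). The connective tissue growth factor CCN2, a well known target, fell (-0.61 ± 0.1, adjusted p = 0.0038, and 0.18 without the block), while its relative CCN1 rose (0.6 ± 0.11, adjusted p = 0.0071).

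Of growth factors and receptor kinases, 8 of 33 tested rose and 6 fell, with a median of -0.02 (4 and 4 without the block, and 4 rose without replicate 3). EPHB2, an ephrin receptor, was at 63.1, 101 and 92.3 CPM in siPRRX1 cells, against 206, 253 and 245 CPM in siCTR cells (-1.48 ± 0.08, adjusted p = 5.2e-05). PDGFA, a platelet-derived growth factor, was at 18.1, 13.9 and 12.7 CPM in siPRRX1 cells and 33.1, 23.5 and 23.5 CPM in siCTR cells (-0.84 ± 0.1, adjusted p = 0.00072). Both were lower without overlap. The epidermal growth factor receptor EGFR was at 143, 133 and 160 CPM in siPRRX1 cells, against 108, 90.1 and 95.3 CPM in siCTR cells, and its relative ERBB2 was at 193, 237 and 234 CPM in siPRRX1 cells, against 129, 173 and 165 CPM in siCTR cells. Both rose without overlap, EGFR by 0.57 ± 0.08 (adjusted p = 0.0016) and ERBB2 by 0.52 ± 0.06 (adjusted p = 0.00074). ANGPTL4, a secreted inhibitor of lipoprotein lipase, was 2.15-fold higher (1.11 ± 0.12, adjusted p = 0.00047).

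Guidance and migration cues were higher in 10 of 36 tested cases and lower in 9, with a median of -0.09 (5 and 4 without the block, 6 and 5 without replicate 3). NRP2, a neuropilin receptor for semaphorins and VEGF, was at 187, 131 and 95.9 CPM in siPRRX1 cells, against 430, 327 and 337 CPM in siCTR cells (-1.43 ± 0.11, adjusted p = 0.00011). UNC5B, a netrin receptor, was at 29.6, 31.5 and 36.3 CPM in siPRRX1 cells, against 14.2, 17.3 and 14.7 CPM in siCTR cells (1.07 ± 0.11, adjusted p = 0.00033). Neither overlapped between groups. SEMA5A, a semaphorin, was 2.18-fold lower (-1.13 ± 0.15, adjusted p = 0.0014).

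Epithelial adhesion and junction genes were higher in 16 of 37 tested cases and lower in 6, with a median of 0.24 (7 and 3 without the block, 1 lower without replicate 3). CDH1, the adherens junction protein E-cadherin, was at 1150, 1390 and 1550 CPM in siPRRX1 cells, against 727, 931 and 898 CPM in siCTR cells. It was 1.6-fold higher with no overlap (0.68 ± 0.08, adjusted p = 0.00052). The tight junction adaptor CGN, cingulin, was at 145, 232 and 239 CPM in siPRRX1 cells, against 76.3, 127 and 127 CPM in siCTR cells (0.91 ± 0.06, adjusted p = 7e-05). CLDN4, a tight junction claudin, was at 243, 285 and 352 CPM in siPRRX1 cells, against 151, 191 and 205 CPM in siCTR cells (0.68 ± 0.07, adjusted p = 0.00028). CLDN3, a second claudin, was at 29.3, 57.3 and 44.9 CPM in siPRRX1 cells, against 8.75, 29.1 and 17.3 CPM in siCTR cells (1.38 ± 0.14, adjusted p = 0.00034, and 0.07 without the block). All 4 genes were higher in every siPRRX1 library. OCLN, occludin, was 1.51-fold higher (0.59 ± 0.07, adjusted p = 0.00062). EPCAM, an epithelial adhesion protein chosen after its values were seen, stood at 325, 472 and 453 CPM in siPRRX1 cells and 179, 336 and 282 CPM in siCTR cells, higher in each pair (0.69 ± 0.08, adjusted p = 0.00066, and 0.095 without the block). The 6 that fell were the desmosomal DSP, DSC3 and PKP3, the nectin NECTIN1 and the polarity proteins LLGL2 and PARD3.

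Epithelial regulators, splicing factors and keratins had 15 of 25 tested members higher and none lower, with a median of 0.31, and 4 were higher without the block and 5 without replicate 3. PRSS8, the membrane protease prostasin, was at 72.6, 79.3 and 91.6 CPM in siPRRX1 cells, against 41.1, 48.2 and 45 CPM in siCTR cells (0.86 ± 0.08, adjusted p = 0.00023). MAL2, a protein of apical transcytosis, was at 16.9, 23.4 and 25.4 CPM in siPRRX1 cells, against 8.13, 8.95 and 10.7 CPM in siCTR cells (1.21 ± 0.12, adjusted p = 0.00034). ESRP2, an epithelial splicing regulator, was at 49.3, 56.1 and 53.8 CPM in siPRRX1 cells and 29.2, 38.8 and 37.5 CPM in siCTR cells (0.62 ± 0.08, adjusted p = 0.0013). No siPRRX1 library fell into the siCTR range for these 3 genes. The grainyhead factor GRHL3 rose by 0.63 ± 0.1 (adjusted p = 0.0033, and 0.13 without the block). Its relative GRHL2, chosen after its values were seen, rose by 0.61 ± 0.14 (adjusted p = 0.016, and 0.31 without the block and 0.082 without replicate 3). The RNA-binding protein RBM47 rose by 0.42 ± 0.08 (adjusted p = 0.0052, and 0.15 without the block). The second splicing regulator, ESRP1, was not called, at 162 CPM on average in siPRRX1 cells and 159 CPM in siCTR cells (0.04 ± 0.07, adjusted p = 0.7).

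Mitotic genes were lower in 19 of 29 tested cases and higher in none, with a median log2 fold change of -1.08 that varied between pairs, at -1.62, -0.24 and -0.77 for replicate pairs 1, 2 and 3. MKI67, the proliferation marker Ki-67, was at 2.47, 4.97 and 0.989 CPM in siPRRX1 cells, against 24.2, 7.51 and 8.09 CPM in siCTR cells (-2.35 ± 0.45, adjusted p = 0.0068), with a log2 fold change of -1.37 without replicate 1 and -3.23 without replicate 2. PRC1, a protein of the mitotic spindle midzone, was at 2.62, 2.94 and 1.27 CPM in siPRRX1 cells, against 17.1, 6.07 and 6.15 CPM in siCTR cells (-2.15 ± 0.3, adjusted p = 0.0018), with a log2 fold change of -1.51 without replicate 1. KIF23, a midzone kinesin, was at 2.47, 3.16 and 1.7 CPM in siPRRX1 cells and 13.7, 6.07 and 7.12 CPM in siCTR cells (-1.94 ± 0.29, adjusted p = 0.0023). All siPRRX1 libraries lay below all siCTR libraries in each of these genes, and replicate 1 was the highest siCTR library in all of them. The ubiquitin-conjugating enzyme UBE2C of the anaphase-promoting complex was 2.6-fold lower (-1.38 ± 0.2, adjusted p = 0.0022), DLGAP5 of the spindle was 4.52-fold lower (-2.18 ± 0.34, adjusted p = 0.0028, with a log2 fold change of -1.44 without replicate 1), and ANLN, anillin of the cleavage furrow, was 2.38-fold lower (-1.25 ± 0.21, adjusted p = 0.0036). Without the block 10 members fell, and without replicate 1, which leaves the 2 pairs of a single library number series, 10 fell. CDK1 was not called, at 9.91 CPM on average in siPRRX1 cells and 11.1 CPM in siCTR cells (-0.22 ± 0.18, adjusted p = 0.42).

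DNA replication genes were below 0 in all 28 tested cases, with a median of -0.42, and 8 fell. RRM2, a subunit of ribonucleotide reductase, was at 8.23, 7.8 and 3.96 CPM in siPRRX1 cells, against 47.6, 12.3 and 14.6 CPM in siCTR cells (-1.88 ± 0.3, adjusted p = 0.003), with a log2 fold change of -1.16 without replicate 1. CDC6, which loads the replicative helicase, was at 2.57, 1.81 and 1.41 CPM in siPRRX1 cells, against 7.16, 7.03 and 4.53 CPM in siCTR cells (-1.64 ± 0.22, adjusted p = 0.0014). Neither overlapped between groups. The other ribonucleotide reductase subunit, RRM1, fell by 0.39 ± 0.09 (adjusted p = 0.014, and 0.073 in the DESeq2 Wald test). The helicase subunit MCM5 fell by 1.24 ± 0.31 (adjusted p = 0.023, and 0.052 without the block, 0.095 without replicate 1 and 0.062 without replicate 3), and its log2 fold change was -0.58 without replicate 1. The polymerase subunit POLA1 fell by 0.52 ± 0.13 (adjusted p = 0.021, and 0.054 without the block, 0.15 in the DESeq2 Wald test, 0.098 without replicate 1 and 0.064 without replicate 3). The count of 8 depended on the pairs kept, with 3 without replicate 1, 15 without replicate 2, 5 without replicate 3 and 3 without the block. CDK inhibitors and p53 targets were higher in 7 of 18 tested cases and lower in 1, with a median of 0.2 (4 and 1 without the block, 4 higher without replicate 3 and 5 lower without replicate 2).

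CDKN1B, the CDK inhibitor p27, was at 93.5, 87.3 and 90.8 CPM in siPRRX1 cells, against 53.9, 64.2 and 64.5 CPM in siCTR cells (0.6 ± 0.08, adjusted p = 0.0016). CDKN1A, the CDK inhibitor p21, was chosen after its values were seen and stood at 3040, 3210 and 3430 CPM in siPRRX1 cells, against 2240, 2470 and 2660 CPM in siCTR cells. Both inhibitors were higher in every siPRRX1 library, CDKN1A by 0.4 ± 0.08 (adjusted p = 0.009, and 0.055 without the block, 0.078 without replicate 2 and 0.067 without replicate 3). CCND2, a D-type cyclin, rose by 0.35 ± 0.07 (adjusted p = 0.0061). SESN2, a stress-induced sestrin, rose by 0.63 ± 0.09 (adjusted p = 0.0023), and TIGAR, a p53-induced regulator of glycolysis, by 0.36 ± 0.07 (adjusted p = 0.0075, and 0.05 without the block and 0.078 without replicate 3). GADD45B, a growth arrest gene that also responds to TGFb, was the member that fell, at 58.8, 49.9 and 48.6 CPM in siPRRX1 cells and 75.7, 70.4 and 73.4 CPM in siCTR cells (-0.47 ± 0.07, adjusted p = 0.0028).

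Interferon-response genes were higher in 21 of 30 tested cases and lower in none, with a median log2 fold change of 0.87, and within pairs the median was 0.44, 1.16 and 0.79. BST2, the virus-tethering protein tetherin, was at 23.4, 92 and 57.4 CPM in siPRRX1 cells, against 6.32, 15 and 10.5 CPM in siCTR cells, without overlap (2.3 ± 0.14, adjusted p = 5.2e-05). IFIT1, an antiviral protein that binds foreign RNA, was at 3.38, 70.3 and 101 CPM in siPRRX1 cells, against 1.77, 0.479 and 3.24 CPM in siCTR cells. IFIT1 rose 16.2-fold (4.02 ± 0.65, adjusted p = 0.0032), a log2 fold change that moved to 5.53, 3.28 and 3.3 without replicates 1, 2 and 3 and to 4.97 without the block. Its siPRRX1 replicate 1 was barely above the highest siCTR library. MX1, an antiviral dynamin-like GTPase, was at 8.07, 74.3 and 78 CPM in siPRRX1 cells, against 9.23, 9.42 and 14.1 CPM in siCTR cells. MX1 was lower in siPRRX1 cells in pair 1 and higher in the others (1.69 ± 0.48, adjusted p = 0.034, and 0.076 without the block, 0.17 in the DESeq2 Wald test and 0.17 without replicate 3). Its log2 fold change was 2.71 without replicate 1 and 2.3 without the block. DDX60, a helicase of the antiviral response outside the list, was at 99.8, 271 and 214 CPM in siPRRX1 cells, against 30.4, 63.6 and 51.9 CPM in siCTR cells, and did not overlap (1.95 ± 0.09, adjusted p = 3.3e-05). HERC6, OAS2, PARP14 and PARP9 were 1.99-fold to 2.14-fold higher with adjusted p of 1e-04 to 0.00061, and of 0.06 to 0.097 without the block. Without the block 4 members were called, and without replicate 1, when more members could be tested, 33 rose. The part of the siRNA itself in this result was not tested.

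Cytokines, chemokines and NF-kB targets had 6 of 27 tested members lower and 4 higher, with a median of 0.08 (2 lower and none higher without the block, 11 higher without replicate 1 and none without replicate 3). SOD2, a mitochondrial superoxide dismutase, was at 81.5, 73.4 and 84.5 CPM in siPRRX1 cells, against 109, 99.5 and 114 CPM in siCTR cells (-0.42 ± 0.06, adjusted p = 0.002). IL1RN, the interleukin-1 receptor antagonist, was at 17.7, 17.4 and 13.4 CPM in siPRRX1 cells and 24.8, 29.6 and 27.7 CPM in siCTR cells (-0.72 ± 0.12, adjusted p = 0.004). These 2 were lower without overlap. ICAM1, a leukocyte adhesion protein, fell by 0.5 ± 0.08 (adjusted p = 0.0034, and 0.1 without the block). IL11, a cytokine induced by TGFb, fell by 0.61 ± 0.12 (adjusted p = 0.0084, and 0.33 without the block, 0.053 in the DESeq2 Wald test and 0.05 without replicate 3). IL34, a ligand of the CSF1 receptor, rose by 0.47 ± 0.1 (adjusted p = 0.0099, and 0.077 without the block, 0.062 in the DESeq2 Wald test and 0.086 without replicate 3). The chemokine CXCL8, chosen after its values were seen, stood at 14.1, 14.6 and 33.2 CPM in siPRRX1 cells and 55.3, 22.4 and 29.3 CPM in siCTR cells with overlap, and was not called (-0.92 ± 0.34, adjusted p = 0.083, and 0.028 without replicate 2 and 0.0077 without replicate 3), with a log2 fold change of -0.15 without replicate 1.

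**Figure D3:**
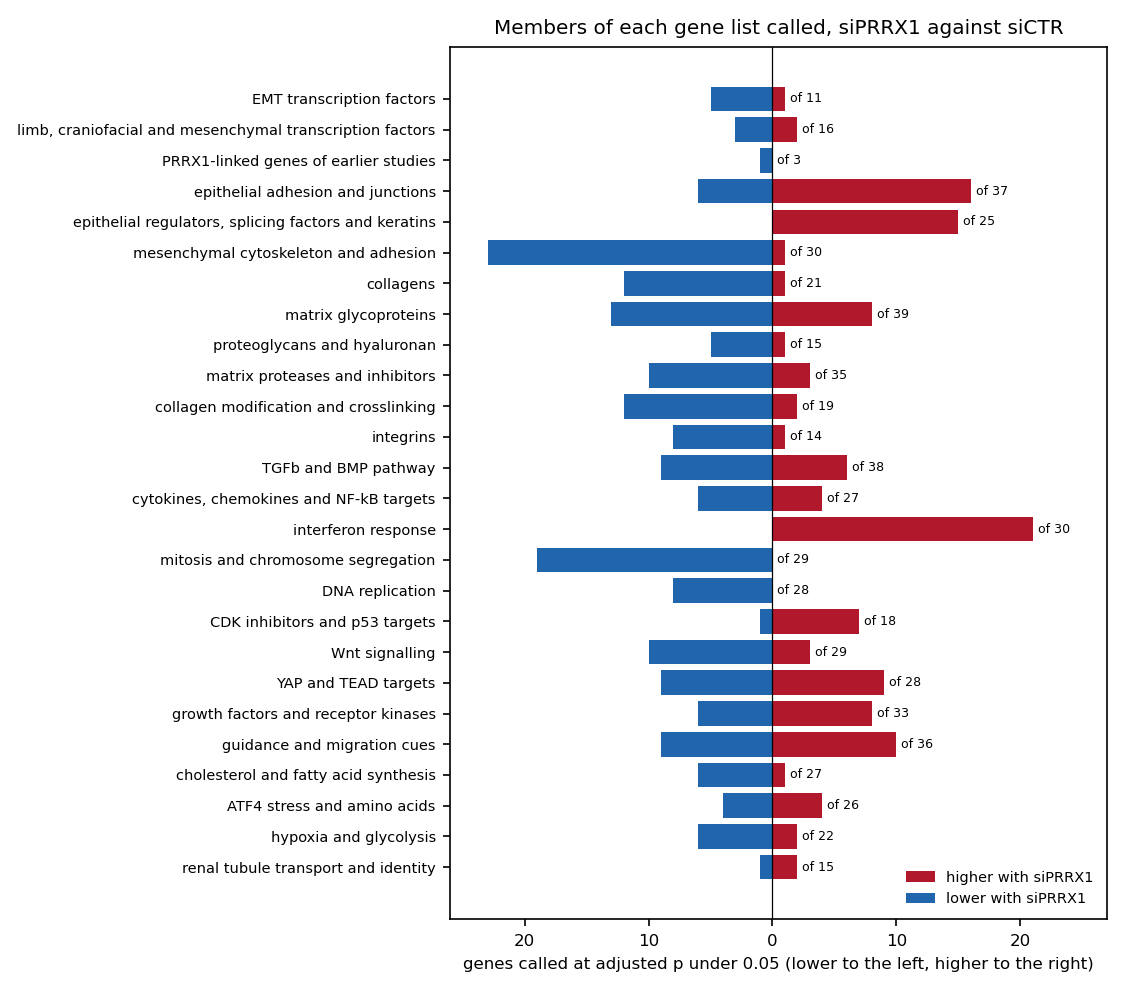
Number of tested members called in each gene list at an adjusted p under 0.05, with members lower in siPRRX1 cells to the left and higher to the right. Numbers beside the bars give the members tested. Over all genes 12.2% were lower and 10.3% higher. The longest bars belong to the mesenchymal cytoskeleton (23 of 30 lower), the interferon response (21 of 30 higher) and mitosis (19 of 29 lower).

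Metabolic and stress lists had 25.9% to 36.4% of their tested members called, against 22.5% of all genes. Cholesterol and fatty acid synthesis had 6 of 27 tested members lower and 1 higher, with a median of -0.07 (2 lower and none higher without the block). The fatty acid desaturase FADS1 was at 69.3, 60.7 and 51 CPM in siPRRX1 cells, against 157, 122 and 115 CPM in siCTR cells, without overlap (-1.11 ± 0.07, adjusted p = 5.2e-05). The fatty acid elongase ELOVL6 was 1.83-fold lower (-0.87 ± 0.11, adjusted p = 0.00089). The desaturase FADS2 was 1.52-fold lower (-0.61 ± 0.11, adjusted p = 0.0062, and 0.053 without the block). Lanosterol synthase LSS was 1.29-fold lower (-0.36 ± 0.07, adjusted p = 0.0059, and 0.13 without the block and 0.075 without replicate 3), and the acetyl-CoA synthetase ACSS2 was 1.32-fold lower (-0.4 ± 0.1, adjusted p = 0.021, and 0.052 without the block, 0.067 without replicate 2 and 0.1 without replicate 3). Without replicate 1, 13 members fell and 2 rose, without replicate 2, 3 rose, and without replicate 3, 3 fell and none rose.

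The ATF4 stress and amino acid list had 4 of 26 tested members higher and 4 lower, with a median of -0.08. ATF3, a stress-induced transcription factor, was at 116, 193 and 200 CPM in siPRRX1 cells, against 63.8, 116 and 103 CPM in siCTR cells, higher in each pair (0.85 ± 0.07, adjusted p = 0.00012, and 0.067 without the block). DDIT3, the stress factor CHOP, was at 4.79, 3.5 and 3.67 CPM in siPRRX1 cells, against 7.86, 8.47 and 9.54 CPM in siCTR cells, lower without overlap (-1.04 ± 0.2, adjusted p = 0.0071). The lipoprotein receptor VLDLR rose (0.61 ± 0.08, adjusted p = 0.0015), and the endoplasmic reticulum chaperone HSPA5 fell (-0.41 ± 0.08, adjusted p = 0.0072, and 0.087 without the block and 0.08 without replicate 3). The pairs went apart over the whole list, with medians of 0.37, -0.56 and -0.26, and 19 members fell without replicate 1 and 1 without replicate 3.

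Hypoxia and glycolysis genes had 6 of 22 tested members lower and 2 higher, with a median of -0.24 and pair medians of 0.08, -0.43 and -0.39. EGLN3, an oxygen-sensing prolyl hydroxylase, was at 80.3, 83.4 and 103 CPM in siPRRX1 cells, against 44, 37.5 and 40.3 CPM in siCTR cells, higher without overlap (1.1 ± 0.1, adjusted p = 0.00019). The glycolytic enzyme ENO1 was 1.47-fold lower (-0.56 ± 0.11, adjusted p = 0.0073, and 0.055 without replicate 3). VEGFA, the vascular growth factor, was 1.49-fold lower (-0.58 ± 0.11, adjusted p = 0.0085, and 0.074 without the block), and the phosphofructokinase PFKP was 1.3-fold lower (-0.38 ± 0.08, adjusted p = 0.009, and 0.15 without the block and 0.084 without replicate 3). The hexokinase HK2 was 1.37-fold higher (0.45 ± 0.09, adjusted p = 0.0099, and 0.11 without the block and 0.052 without replicate 3). Without the block 2 members fell and 1 rose, 13 fell without replicate 1, and 1 fell and 1 rose without replicate 3.

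Renal tubule genes had 2 of 15 tested members higher and 1 lower, with a median of 0.1. This is 20% called, no more than the 22.5% of all genes tested, so the list as a whole did not stand out. CA2, a cytosolic carbonic anhydrase, was at 79.6, 58.5 and 50.6 CPM in siPRRX1 cells, against 147, 130 and 117 CPM in siCTR cells, lower without overlap (-1.06 ± 0.08, adjusted p = 9.7e-05). GATA3, a factor of the nephric duct, was at 164, 151 and 146 CPM in siPRRX1 cells and 151, 124 and 122 CPM in siCTR cells (0.22 ± 0.06, adjusted p = 0.04, and 0.19 without the block, 0.18 in the DESeq2 Wald test, 0.18 without replicate 2 and 0.25 without replicate 3). SLC12A2, a sodium-potassium-chloride cotransporter, was 1.24-fold higher (0.31 ± 0.09, adjusted p = 0.041, and 0.12 without the block and 0.12 without replicate 3). None rose without the block or without replicate 3, 1 rose without replicate 2, and 4 rose and 2 fell without replicate 1. Of the other-cell markers, 1 fibroblast gene was tested and not called (PDGFRA, -0.47 ± 0.16, adjusted p = 0.071), and neither were the 2 endothelial genes, KDR at 0.67 ± 0.3 (adjusted p = 0.14) and VWF. The 1 leukocyte gene, LCP1 for the actin-bundling protein L-plastin, was at 10.1, 1.58 and 0.848 CPM in siPRRX1 cells and 3.71, 1.44 and 0.647 CPM in siCTR cells (1.11 ± 0.31, adjusted p = 0.031, and 0.44 without the block and 0.4 in the DESeq2 Wald test). LCP1 was too low to be tested without replicate 1 and was not called without replicate 3 (adjusted p = 0.054).

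The largest rises and falls held further genes outside the lists. IL1RL1, the interleukin-33 receptor, had the largest rise, at 15.7, 7.8 and 31.2 CPM in siPRRX1 cells, against 0.884, 0.319 and 0 CPM in siCTR cells. It was 28.2-fold higher (4.82 ± 0.41, adjusted p = 0.00017), with all siPRRX1 libraries above all siCTR libraries. The siCTR level rests on 22 counts, and the log2 fold change was 6.76 without replicate 1 and 4.21 without replicate 3. KRT27, annotated as a type I keratin, was at 85.1, 27.1 and 47 CPM in siPRRX1 cells, against 9.28, 6.23 and 7.12 CPM in siCTR cells (2.86 ± 0.17, adjusted p = 5.2e-05). AP3B2, a subunit of an adaptor complex best known in neurons, was at 14.2, 21.7 and 31.1 CPM in siPRRX1 cells and 1.24, 5.43 and 4.53 CPM in siCTR cells (2.79 ± 0.24, adjusted p = 0.00019). RNASE1, a secreted ribonuclease, was at 16.6, 17.4 and 21.5 CPM in siPRRX1 cells and 4.11, 3.51 and 2.91 CPM in siCTR cells (2.3 ± 0.18, adjusted p = 0.00012). None of these genes overlapped between groups. The kinase gene ALPK2 (3.96-fold), the arrestin-like ARRDC4 (3.54-fold), the lysosomal protease CTSS (3.32-fold) and the Rab effector EXPH5 (3.26-fold) also rose without overlap, with adjusted p of 0.00033 to 0.0023. The log2 fold change of ALPK2, 1.99, was 2.63 without replicate 1. HIST1H1C, a linker histone whose near-identical copies make its value uncertain, was 3.25-fold higher (adjusted p = 6e-04).

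On the other side, C1QL1, a secreted protein of the C1q family, was at 2.17, 1.47 and 1.55 CPM in siPRRX1 cells, against 24.7, 10.4 and 14.4 CPM in siCTR cells. It was 9.72-fold lower (-3.28 ± 0.19, adjusted p = 5.2e-05). SLC8A3, a sodium-calcium exchanger of muscle and brain, was at 32.4, 16.7 and 13.4 CPM in siPRRX1 cells, against 170, 79.6 and 132 CPM in siCTR cells (-2.58 ± 0.16, adjusted p = 5.2e-05). Both genes were lower in every siPRRX1 library. GJA1, the gap junction protein connexin 43, was at 135, 90 and 66 CPM in siPRRX1 cells, against 603, 327 and 413 CPM in siCTR cells (-2.21 ± 0.13, adjusted p = 5.2e-05), again without overlap. SLC10A4, a transporter-like membrane protein, was 5.3-fold lower (-2.41 ± 0.28, adjusted p = 0.00072). The mitochondrial malic enzyme ME3 was 5.03-fold lower (-2.33 ± 0.18, adjusted p = 0.00012), and the kinase TNIK was 4.66-fold lower (-2.22 ± 0.16, adjusted p = 9.7e-05, and 0.056 without the block).

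Genes that TGFb itself moved were taken from 6 libraries that the knockdown comparison does not use, as those with an adjusted p under 0.05 and at least 2-fold between TGFb-treated and untreated MDCK-NBL2 cells at day 4. TGFb-treated replicate 1 carries a library number of the same number series as siPRRX1 and siCTR replicates 2 and 3. The other TGFb-treated libraries and all untreated ones carry numbers of the series of siPRRX1 and siCTR replicate 1. What this did to the TGFb comparison, which has no block, was not tested. TGFb raised 189 genes (1.66% of 11385) and lowered 255 (2.24%) by this rule. Of the 184 raised genes tested in the knockdown, 75 fell with siPRRX1 (40.8%) and 11 rose (5.98%), with a median log2 fold change of -0.32. Of the 232 lowered genes tested, 76 rose with siPRRX1 (32.8%) and 14 fell (6.03%), with a median of 0.25. The median over all genes tested was 0.006, and 12.2% fell and 10.3% rose. The TGFb comparison rests on an untreated replicate 2 that stood apart from the other 2 untreated libraries. It lay at 21.4 on the first principal component of the 12 day 4 MDCK-NBL2 libraries, against 106 and 117, and had 148 CPM of ACTA2 against 0.69 and 1.49 CPM.

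Without that library TGFb raised 1475 genes, of which 1444 were tested, and 465 of these fell with siPRRX1 (32.2%) and 139 rose (9.63%), with a median of -0.16. It then lowered 1428 genes, of which 1222 were tested, and 190 rose with siPRRX1 (15.5%) and 108 fell (8.84%), with a median of 0.05. The raised and lowered genes were then 12.8% and 12.4% of the 11535 tested. In MDCK-II, the other MDCK line of the series, TGFb raised 690 of 11708 genes (5.89%) and lowered 392 (3.35%) by the same rule. Taking these gave 191 of 643 raised genes lower with siPRRX1 (29.7%) and 113 higher (17.6%), with a median of -0.1. The genes that TGFb lowered in MDCK-II had 26 of 255 higher with siPRRX1 (10.2%) and 51 lower (20%), with a median of -0.09, a sign opposite to that of the MDCK-NBL2 genes.

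**Figure D4:**
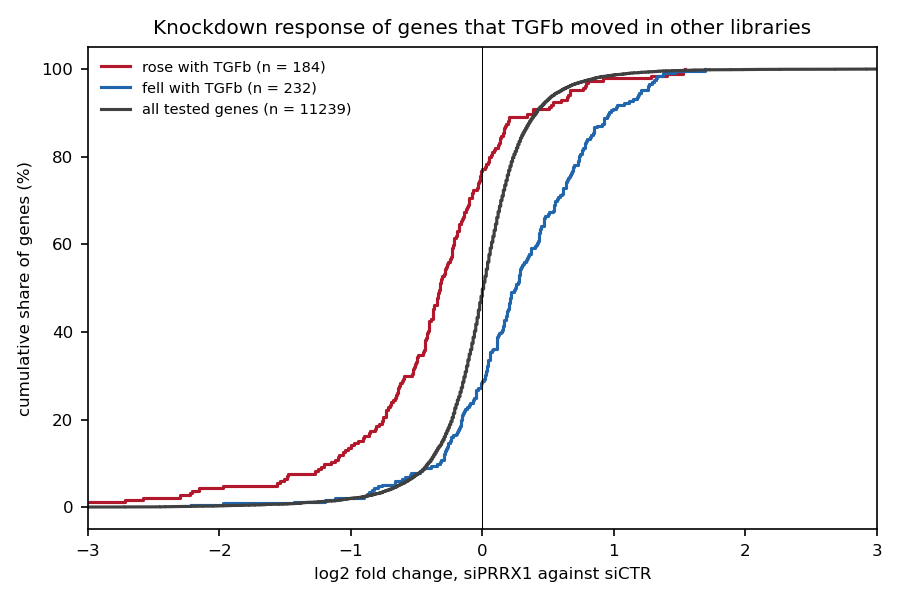
Cumulative share of genes against the log2 fold change of siPRRX1 over siCTR, for genes that TGFb raised (n = 184) or lowered (n = 232) in other MDCK-NBL2 libraries and for all 11239 genes tested. The axis is cut at 3 on either side. The raised genes lie to the left of all genes, with a median of -0.32, and the lowered genes to the right, with a median of 0.25.

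Single genes show the course in each library. COL3A1, with 104, 6.33 and 12 CPM in TGFb-treated and 0.122, 0 and 0 CPM in untreated cells, was among the 75 genes that TGFb raised and siPRRX1 lowered, and the others named by size of change were C1QL1, ACTG2, SLC8A3, PDLIM3, TNIK, GJA1 and ABCA13. ABCA13, a lipid transporter, was at 29, 12 and 11.7 CPM in siPRRX1 cells, against 64.8, 43.6 and 46.9 CPM in siCTR cells (-1.57 ± 0.15, adjusted p = 0.00031). TGFb-treated cells had 106, 39.5 and 33.2 CPM of it and untreated cells 2.56, 3.47 and 0.229 CPM, so siPRRX1 cells remained above the untreated ones.

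Of the 76 genes lowered by TGFb and raised by siPRRX1, 8 are named here by size of change, among them CLDN3 and, with its pairs apart as described above, MX1. SPINK5, a serine protease inhibitor of epithelia, was at 308, 449 and 318 CPM in siPRRX1 cells, against 94.8, 220 and 157 CPM in siCTR cells (1.26 ± 0.13, adjusted p = 0.00033). TGFb-treated cells had 264, 192 and 200 CPM of SPINK5 and untreated cells 6290, 1250 and 2590 CPM, far above the siPRRX1 level. IGSF5, an adhesion protein of tight junctions, was at 33.8, 47.4 and 53.3 CPM in siPRRX1 cells, against 12.6, 19.8 and 15.9 CPM in siCTR cells (1.47 ± 0.11, adjusted p = 9.7e-05). TGFb-treated cells had 13.4, 9.26 and 18 CPM of IGSF5 and untreated cells 46.6, 30.2 and 33.2 CPM, which overlap the siPRRX1 range. The exocytosis GTPase RAB27B (1.33 ± 0.16, adjusted p = 0.00079, and 0.052 without the block) and the dimerization cofactor PCBD1 (1.29 ± 0.16, adjusted p = 0.00095, and 0.051 without the block) rose without overlap. The mucin MUC20 (1.38 ± 0.25, adjusted p = 0.006, and 0.15 without the block) and the secreted FAM3D (1.26 ± 0.15, adjusted p = 0.00066, and 0.12 without the block) rose in each pair with overlapping groups.

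With all untreated libraries kept, fewer genes moved the same way under both treatments, 11 up and 14 down, against 75 and 76. Without untreated replicate 2 this did not hold for larger changes among genes that TGFb lowered. Of these, 50 were at least 2-fold lower with siPRRX1 and 40 at least 2-fold higher. Among the genes it then raised, 24 were at least 2-fold higher and 105 lower. Genes lowered in MDCK-II had 31 at least 2-fold lower and 16 higher. CDC25B, a phosphatase that promotes entry into mitosis, was at 10.5, 14.8 and 5.09 CPM in siPRRX1 cells, against 32.8, 49.8 and 41.6 CPM in siCTR cells (-1.97 ± 0.2, adjusted p = 0.00039). TGFb-treated cells had 36.1, 60.4 and 37.6 CPM of CDC25B and untreated cells 126, 98.9 and 133 CPM, so both treatments stood below their controls in every library. ETV4, an ETS factor, fell by 0.61 ± 0.14 (adjusted p = 0.016, and 0.09 without replicate 3). TMEM45B fell by 0.88 ± 0.14 (adjusted p = 0.0031, and 0.12 without the block). SPARC and COL14A1, described above, rose under both, as did HIST2H2AA3, a core histone with near-identical copies whose value is uncertain (1.53 ± 0.18, adjusted p = 7e-04), and the kinase anchor AKAP6 (0.78 ± 0.15, adjusted p = 0.0075, and 0.1 without the block). SPARC was at 3.07, 2.07 and 1.8 CPM in TGFb-treated cells and 0, 0.148 and 0 CPM in untreated cells, so its siPRRX1 libraries at 6.89 to 16.3 CPM were higher than all of them.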

How the data were processed

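The deposited table held raw counts per gene, whole numbers with 1 column for each of 24 libraries and 32704 genes. The submitters' processing notes name STAR 2.5.3a, RSEM 1.3.0, FastQC and the genome build CanFam3.1. Their roles, the annotation release, the strand setting and any rounding of RSEM estimates were not given in the sources used here. Libraries were grouped by their labels. The labels do not say that replicates are separate cultures, so p-values reflect only how these libraries varied. The TGFb dose unit in the labels is doubtful and left out.

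The 6 knockdown libraries were fitted alone in edgeR 4.0.16 (R 4.3.3) by quasi-likelihood F tests with TMM scaling and replicate number as a block, which leaves 2 residual degrees of freedom among samples and 6.66 prior ones. The pairing follows the replicate numbers, and same-numbered libraries carry neighbouring library numbers. filterByExpr (minimum count 10, minimum total 15) left 11239 genes. The prior count was 0.125, and p-values were adjusted over all tested genes by the Benjamini-Hochberg method at 0.05. The common biological coefficient of variation was 8.1%, and 12.5% without the block. The SE of a log2 fold change is its absolute value divided by the root of F. Levels are CPM on TMM-scaled library sizes over all 24 libraries. They are not divided by gene length and are compared between libraries, not between genes. Medians within pairs use log2 CPM with a prior count of 2. TGFb genes came from 6 other libraries by the same test without a block. The test was tried on simulated counts first.

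The 29 gene lists (1057 genes, 982 in the table, 638 tested) and the genes studied were chosen with earlier results of these data known. Lists are described by counts and medians, with no set test. The rule named PRRX1, PRRX2, SNAI1, SNAI2, ZEB1, ZEB2 and TWIST1, the 12 largest rises and 12 largest falls (same direction in all 3 pairs, at least 10 CPM in the higher group), up to 5 called genes in each list, by smallest adjusted p, and up to 8 genes per direction moved oppositely and 4 moved alike by TGFb, 162 in all. Other genes with values are listed as chosen afterwards or complete the account of a list. Alternatives were no block, DESeq2 1.42.0 with its size factors or Wald test, no filter, all libraries in a single model, and each replicate left out as a pair, since a lone library carries no contrast under the block. No sequences or positions are given. Some genes that the rule names are not reported here.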

Additional observations from a re-analysis of the deposited data

How the results depend on the processing

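The count of 2528 changed genes (1161 higher, 1367 lower) differed between settings. The fit without the replicate block called 1159 (459 higher, 700 lower), the DESeq2 Wald test with the block 1380 (557 higher, 823 lower), and a model over all 24 libraries 249 (101 higher, 148 lower). A model of 23 libraries, without untreated day 4 replicate 2 and added after seeing the data, called 655 (248 higher, 407 lower). Leaving out 1 pair gave 1038 to 3255 calls (441 to 1530 higher, 597 to 1725 lower), and 1038 was reached without replicate 3. The cause of these differences was not tested. DESeq2 size factors gave 2519 and no filter on low counts 2908. Every one of the 2528 genes that an alternative tested kept its sign under each of these 9 alternatives, and no call they shared had the opposite sign. PRRX1 stayed called under each, at -4.99 to -4.62. Under the pairing by replicate number, 50 of the 163 calls among the genes that the rule named or that were chosen afterwards lost significance once the block was dropped. Of the same calls, 132 were lost in the model of 24 libraries, 92 in that of 23, 13 in the DESeq2 Wald test and 29 without replicate 3, while 134 were kept without each pair. In the model of 24 libraries the lower mesenchymal cytoskeleton genes numbered 3 in place of 23, collagens 0 in place of 12 and mitotic genes 0 in place of 19, and interferon-response genes higher numbered 3 in place of 21. The median of genes that TGFb raised (-0.32) was -0.16 without untreated replicate 2 and -0.1 with MDCK-II genes. That of genes TGFb lowered (0.25) was 0.05 without that library, 0.22 with no fold minimum and -0.09 with MDCK-II genes, which reversed it, and the cause was not tested. Depth limits the low genes: PRRX1 rests on 25 counts in siPRRX1 cells.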
